A study of Homo sapiens with 96 samples.

Results

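The 10 genes described here are the Notch receptor gene NOTCH1, the ligand genes DLL1, DLL3 and JAG1, the target genes HES1, HES4, HES5, HEY1 and HEY2, and the inhibitor gene NRARP. They were found by symbol through the Ensembl identifiers of the deposited table, where each matched 1 row, and they are 10 of its 58434 genes. The study asked how exposure to 5 compounds affects neural differentiation of H9 (a widely used line of human embryonic stem cells), and sequenced polyadenylated RNA from 96 libraries in 12 groups of 8. Neural progenitor cells (NPC) were kept in progenitor medium and sampled unexposed on day 0. The other 11 groups were cultures grown from such cells in a differentiation medium with neurotrophic factors and sampled on day 10, labelled as co-cultures of neurons and astrocytes. Of these, 1 group was the unexposed control. Acrylamide, chlorpyrifos, fluoxetine, methyl mercury and valproic acid were each given to a pair of groups, at concentrations that the labels name IC5 and IC20/100. Medium was the solvent of acrylamide and valproic acid, whereas chlorpyrifos, fluoxetine and methyl mercury were given in dimethyl sulfoxide (DMSO), at 0.25% of the final volume. The sources used here give no molar concentrations, no length of exposure and no statement on DMSO in the controls. All groups carry the genome of 1 cell line, and each group is 1 experiment sampled 8 times for technical replication, so p-values measure technical spread and not the spread between independent differentiations.

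Notch is a receptor that one cell uses to read ligands on its neighbours. A bound receptor is cut by ADAM proteases and gamma-secretase, and the freed intracellular part enters the nucleus, where it joins the DNA-binding protein RBPJ and a Mastermind coactivator to switch on HES and HEY genes. These genes code for repressors that hold proneural genes such as NEUROG2 down, so that in the developing nervous system cells with high Notch activity stay progenitors while neighbours rich in Delta ligands become neurons. NRARP is itself a target and binds and destabilises the intracellular part of the receptor.

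Promoter sequence was at hand for 7 of the 10 genes (NOTCH1, JAG1, HES1, HES4, HES5, HEY2 and NRARP), from RefSeq on GRCh38.p14. The 250 bases before each start were searched on both strands for the RBPJ motif GTGGGAA and its variant GTGAGAA, and for the N-box CACNAG, through which HES proteins bind DNA. No match overlapped another. GTGGGAA was found before HES1, HES4, HES5 and HEY2, which are 4 of the 7 genes, against 5.43% of all 35116 RefSeq promoters. In HES1, HES4 and HES5 it lay on the strand of the gene between 85 and 71 bases before the start, and HES5 held another match on the opposite strand, at positions -224 to -218 from the start. GTGAGAA was found before 0 of the 7 genes, against 3.59% of all promoters. N-boxes were found before HES1 alone, at 3 places, whereas 32.0% of all promoters held at least 1. The stretches before HES1, HES4 and HES5 are shown because these 3 targets carry the RBPJ motif at nearly the same distance from their RefSeq starts. They differed in direction in the comparisons below. The GENCODE span of HES4 given below, chr1:998962-1000172, runs into its printed stretch, chr1:1000154-1000203. The shared distance therefore holds for the RefSeq starts and not for the GENCODE start of HES4. Each runs 5′ to 3′ along the gene's strand, with matches in capitals: GTGGGAA or its reverse complement TTCCCAC for RBPJ, and, in HES1 only, the N-boxes CTTGTG (opposite strand), CACGAG and CACGAG. A match is a run of letters and not a measured binding site.
HES1, chr3:194135968-194136147, plus strand: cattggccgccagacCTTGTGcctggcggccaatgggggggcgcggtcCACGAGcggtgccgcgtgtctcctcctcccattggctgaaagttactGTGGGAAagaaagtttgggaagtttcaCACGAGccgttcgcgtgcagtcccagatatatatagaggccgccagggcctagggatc
HES5, chr1:2530264-2530493, minus strand: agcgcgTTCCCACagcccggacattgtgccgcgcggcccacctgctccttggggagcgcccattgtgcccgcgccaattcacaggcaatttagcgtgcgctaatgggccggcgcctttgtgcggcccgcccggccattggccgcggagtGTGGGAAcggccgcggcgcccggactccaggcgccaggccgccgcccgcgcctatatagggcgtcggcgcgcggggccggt
HES4, chr1:1000154-1000203, minus strand: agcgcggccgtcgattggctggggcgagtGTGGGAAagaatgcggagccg

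**Figure D1:**
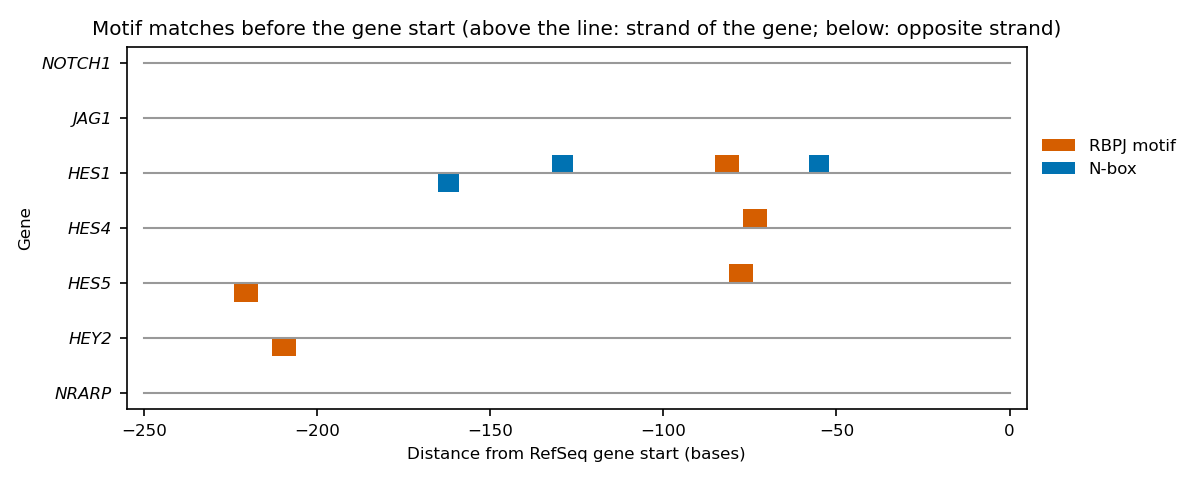
Matches to the RBPJ motif GTGGGAA (orange) and the N-box (blue) in the 250 bases before the RefSeq start of the 7 genes with a promoter sequence, with distance from the start on the x axis. HES1, HES4 and HES5 each have an RBPJ match on the strand of the gene (above the line) between 85 and 71 bases before the start, and NOTCH1, JAG1 and NRARP have none.

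The values are counts that the authors divided by 1 size factor per library, called normalized counts below. Recovered reads per library were 9.487 M to 29.63 M (M stands for mega), with a median of 18.94 M. Deposited totals were 18.11 M to 20.18 M in 95 libraries. Methyl mercury IC20/100 replicate 8 stood apart with 20.95 M and with values of HES4, HES5 and NRARP far above its group, so results that use that group are given with and without it. The labelled cell types were checked against their markers. The summed normalized count of 7 neuron markers was 64404 in NPC and 87537 in controls. The 6 astrocyte markers summed to 3053 in controls and 3238 in NPC, of which the glutamate transporter gene SLC1A2 made up 2850 and 2935. The others averaged 134 (GJA1), 25.7 (GFAP), 19.4 (S100B), 18.9 (ALDH1L1) and 5.41 (AQP4) in controls, and of the 6 markers 1 rose and 3 fell from NPC. The 9 progenitor markers summed to 103206 in controls and 107048 in NPC, although 5 of them rose and 4 fell. In such bulk samples fewer cells of a type and less RNA per cell cannot be told apart.

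All 10 genes were detected in NPC and in every day 10 group. Compared per kilobase of transcript, the most abundant of them in controls was HES4 with a normalized count of 1908 per kilobase, followed by DLL1 with 1359.6, HES5 with 1272 and NRARP with 1145. NOTCH1 had 798 per kilobase, DLL3 617, JAG1 533 and HES1 301. HEY1 had 84.3 and HEY2 4.95, so that HEY2 rests on few reads. In NPC the order per kilobase was different, with DLL1 first at 1176, JAG1 at 1106, NRARP at 1080.4 and HES4 at 903, while HES5 was eighth at 368 per kilobase.

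**Figure D2:**
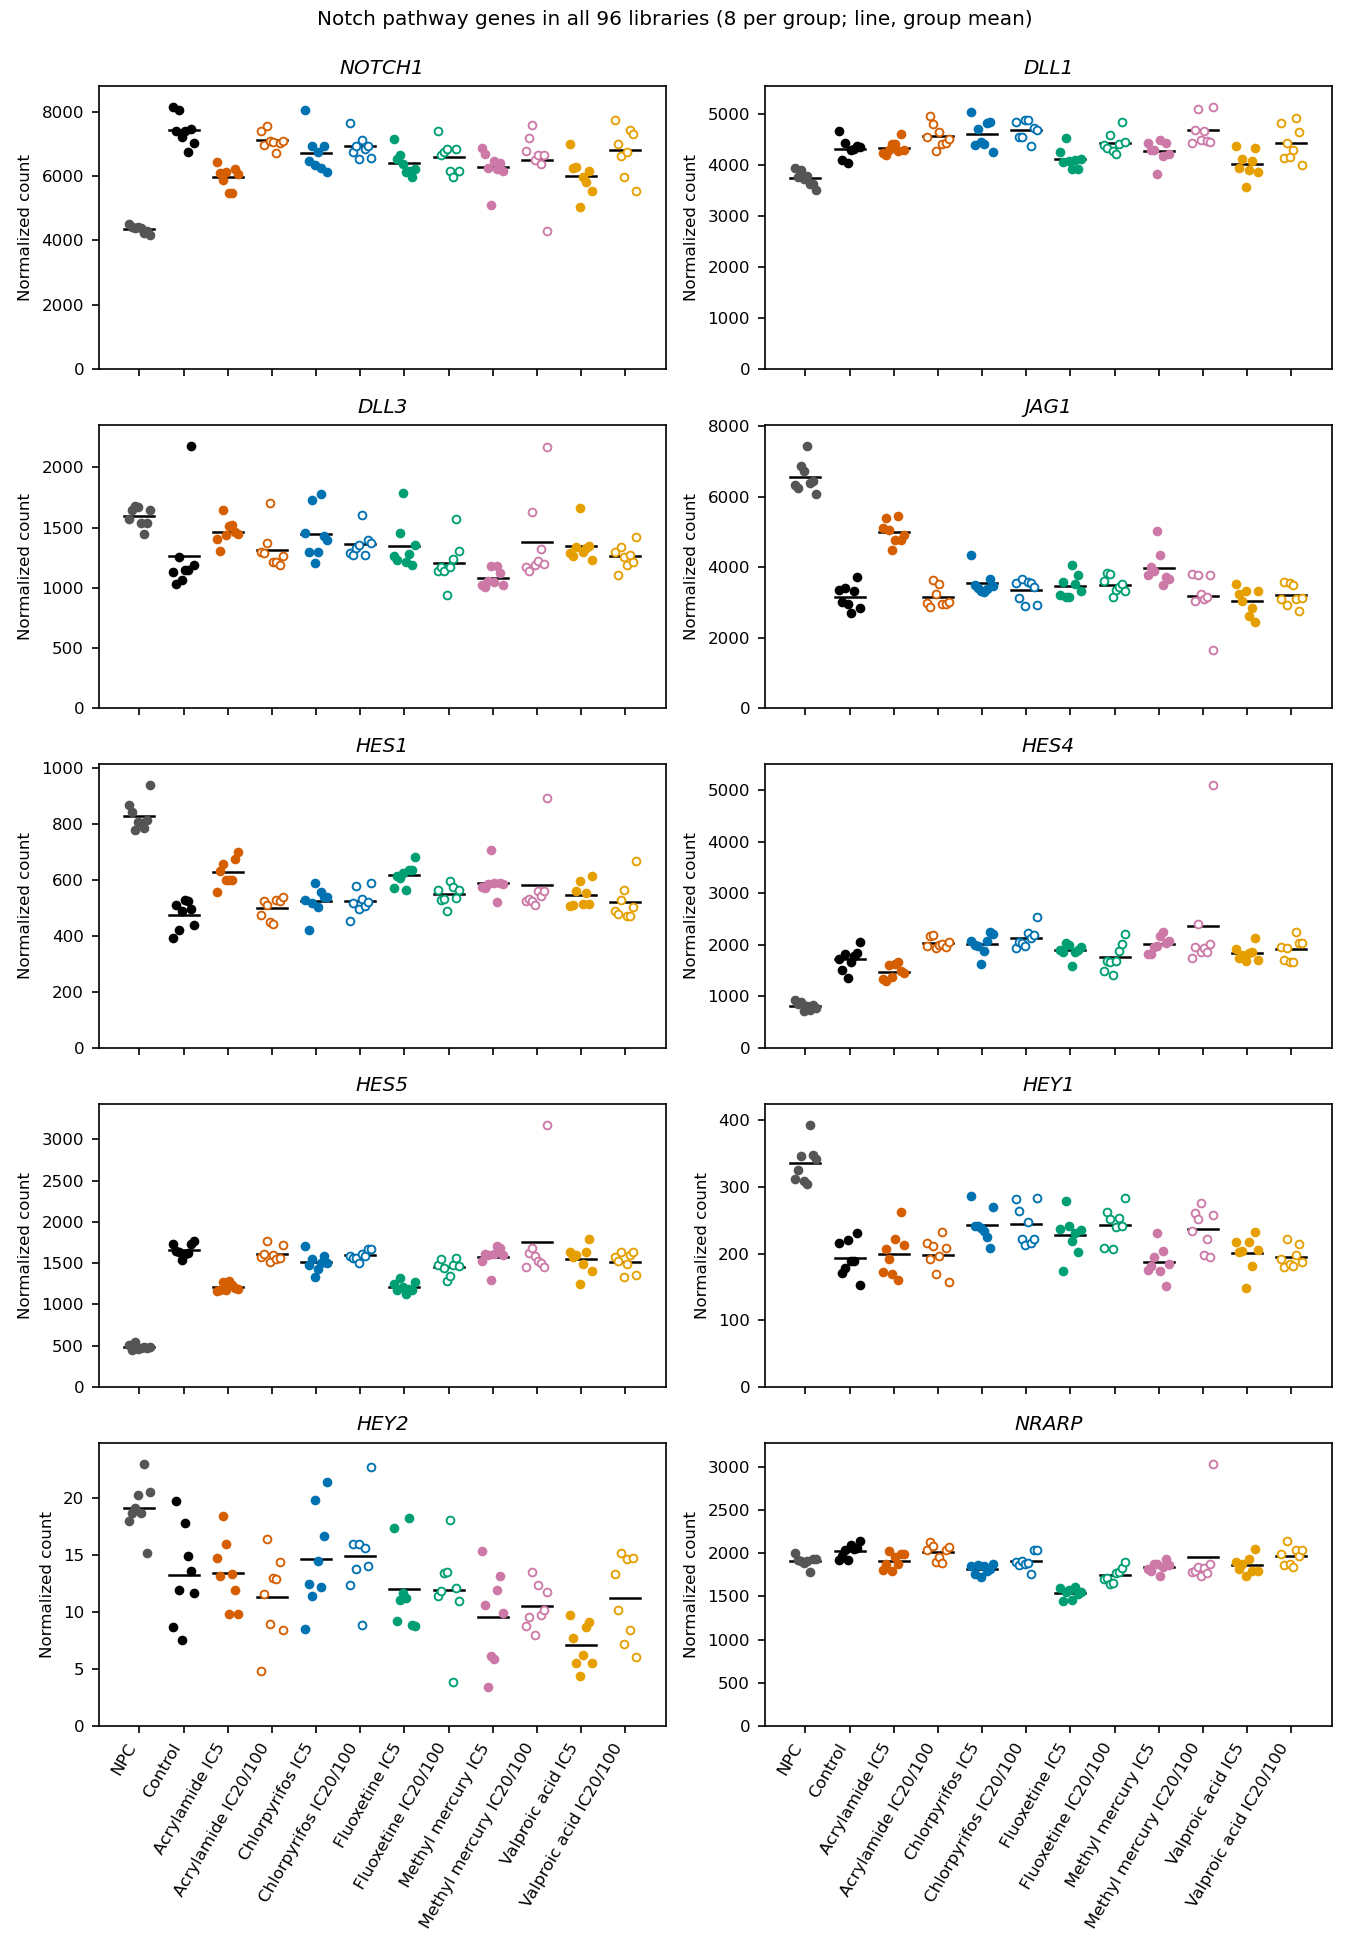
Normalized counts (y axis, from 0) of the 10 genes in each of the 96 libraries, by group (x axis), where points are single libraries, filled at IC5, in NPC and in controls and open at IC20/100, and lines are group means. HES5 is lowest in the 8 NPC libraries (442 to 540.2), and the single high open point in HES4, HES5 and NRARP is methyl mercury IC20/100 replicate 8.

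Between NPC and unexposed day 10 controls the receptor, 1 ligand, 2 HES genes and NRARP rose while 2 ligands, HES1 and both HEY genes fell. All 10 passed the test, 5 in each direction, in a comparison in which 70.7% of all 18063 genes tested passed, 33.9% upward and 36.8% downward, so the count alone says little about these genes. Their median log2 fold change was -0.15, against -0.01 over all genes tested. Tests were made with limma on log2 of the normalized count plus 2, with sequencing run as a term and Benjamini-Hochberg adjustment over all genes, and a gene was called at an adjusted p under 0.05. The direction was the same in 6 of 6 sequencing runs for each gene but HEY2, which was lower in 5 runs and higher in 1. The share of all genes whose groups did not overlap was not counted, here or in the comparisons below.

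NOTCH1 (ENSG00000148400.11, chr9:136494433-136545786, minus strand, GENCODE 29 on GRCh38) codes for the receptor. In NPC its normalized count was 4156 at the lowest, 4382 at the median and 4515 at the highest (mean 4347 ± 115, SD, n = 8). In controls it was 6752, 7401 and 8142 (mean 7428 ± 472, SD, n = 8), and the groups did not overlap. NOTCH1 rose by a log2 fold change of 0.76 ± 0.04 (SE, limma adjusted p = 2.657e-09).

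Of the ligands, DLL1 (ENSG00000198719.9, chr6:170282206-170306565, minus strand) codes for a Delta ligand that neuronal precursors display to their neighbours. It rose slightly, from 3733 ± 142 in NPC to 4315 ± 193 in controls (SD, n = 8 each), without overlap (log2 fold change 0.20, limma adjusted p = 0.0001011). DLL3 (ENSG00000090932.10, chr19:39498895-39508481, plus strand) codes for a Delta-like protein that does not activate Notch on neighbouring cells and acts mainly within the cell that makes it. It fell from 1593 ± 82.0 to 1269 ± 374 (log2 fold change -0.40, limma adjusted p = 0.009589). The groups overlapped because control replicate 7 had a DLL3 count of 2177, against 1030.3 to 1260.2 in the other 7 controls, and without that library the log2 fold change was -0.48 (limma adjusted p = 4.084e-06). JAG1 (ENSG00000101384.12, chr20:10637684-10673999, minus strand) codes for the Jagged ligand.
Its count was 6093, 6420 and 7440 in NPC (lowest, median, highest; mean 6571 ± 435, SD, n = 8) and 2704, 3163 and 3737 in controls (mean 3168 ± 346). Every NPC library lay above every control, and JAG1 fell by 1.09 ± 0.05 on the log2 scale (SE, limma adjusted p = 1.492e-09), the largest fall of the 10 genes.

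Of the targets, the Hairy-related repressor genes split. HES1 (ENSG00000114315.4, chr3:194136145-194138732, plus strand) had counts of 778, 811 and 938 in NPC (lowest, median, highest) and 392, 492 and 528 in controls. The ranges stood apart, with a mean of 830.0 ± 52.8 against 475 ± 51.1 (SD, n = 8 each), and HES1 fell by 0.77 ± 0.06 on the log2 scale (SE, limma adjusted p = 3.167e-07). HES5 (ENSG00000197921.6, chr1:2528745-2530245, minus strand), a target most closely tied to Notch activity in neural progenitors, moved the other way. Its counts were 442, 476 and 540.2 in NPC and 1539, 1640 and 1771 in controls, again without overlap. HES5 rose from 481 ± 30.6 to 1662 ± 78.7 (SD, n = 8 each), a log2 fold change of 1.76 ± 0.04 (SE, limma adjusted p = 1.296e-11) and the largest change of the 10. HES4 (ENSG00000188290.10, chr1:998962-1000172, minus strand), a HES gene without a mouse counterpart, rose without overlap from 812 ± 71.4 to 1715 ± 215 (log2 fold change 1.07 ± 0.07, SE, limma adjusted p = 7.939e-08).

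The HEY genes, which code for repressors related to HES with a wide role in vessels and heart, both fell. HEY1 (ENSG00000164683.17, chr8:79764010-79767863, minus strand) went from 335 ± 29.3 to 193 ± 27.1 without overlap (log2 fold change -0.79, limma adjusted p = 9.221e-08). HEY2 (ENSG00000135547.9, chr6:125747664-125761269, plus strand) was at 19.2 ± 2.3 and 13.2 ± 4.2, with overlapping groups (log2 fold change -0.51, limma adjusted p = 0.02652, and 0.06652 when genes of low value are not filtered out). NRARP (ENSG00000198435.4, chr9:137300482-137302251, minus strand) differed least, with 1912 ± 61.4 against 2027 ± 80.9 and overlapping groups (log2 fold change 0.09, limma adjusted p = 0.01642, and 0.09113 when all 96 libraries are fitted together). The gene model of DLL1 overlaps FAM120B on the opposite strand and a long noncoding gene on its own, and those of NOTCH1, JAG1, HES5 and HEY2 overlap antisense or long noncoding genes on the opposite strand. The kit keeps strand, but the sources used here do not say whether the quantification used it, so such reads may be shared.

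The rest of the pathway was followed through lists of other genes. Among 8 other receptors and ligands, 3 rose and 4 fell (median log2 fold change -0.17). NOTCH4 (-1.15), a receptor best known from vessels, fell, and DLK1 (0.90), a Delta-like protein without the Notch-binding domain, and JAG2 (0.63) rose. NOTCH2 and NOTCH3 also fell, by less (-0.34 and -0.18), against the rise of NOTCH1. Of 9 genes for receptor cleavage 1 rose and 4 fell (median -0.32), led by the gamma-secretase subunit gene APH1B (-0.73). Of 17 genes for glycosylation and endocytosis of receptors and ligands 8 rose and 5 fell (median 0.16), led by the ubiquitin ligase gene NEURL1 (1.55), which promotes ligand uptake, the Fringe gene MFNG (1.19) and DTX1 (0.83).

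Of 10 genes of the nuclear complex 2 rose and 4 fell (median -0.21). RBPJ itself did not pass (log2 fold change 0.17), the corepressor gene TLE1 rose (1.27) and TLE4 fell (-0.78). The 5 other HES and HEY genes all passed, 3 upward (median 0.36). HES3, a HES gene of early neural tube progenitors, fell from a mean count of 559.5 to 15.8 (log2 fold change -5.07). HES7, known from the segmentation clock, went from 0.353 to 63.9 (fitted log2 fold change 4.78, which depends on the added 2), and HEYL fell (-2.38). Of 8 proneural factors 7 could be tested, ATOH1 being below the filter; 5 rose and 1 fell (median 0.95). NEUROG2 (1.72) and MYT1 (1.16), both of which promote neuronal differentiation, rose most. The summed count of 6 dividing-cell markers was 27107 in NPC and 13985 in controls, and its part in these differences was not tested.

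At each exposure at IC5, 3 to 5 of the 10 genes passed the test, where 10.9% to 42% of all genes did. The called genes differed by less than 1.5-fold, except for JAG1 at acrylamide IC5 and HEY2 at valproic acid IC5. The 10 exposed groups share 1 set of 8 controls and 1 fit of the 88 day 10 libraries over 20136 genes, so their comparisons are not independent, and values are given side by side. Against these controls compound and DMSO cannot be told apart for chlorpyrifos, fluoxetine and methyl mercury, since DMSO in controls is not stated. In the order of group means for NOTCH1 the control was the highest of the 12 groups, and in that for HES1 it was the lowest. HES1 passed the test upward in 6 of the 10 exposures and NOTCH1 downward in 7. Over all genes 0.0497% to 20.5% passed upward and 0.00993% to 21.5% downward, depending on the exposure. These are shares for single exposures. How many of all genes passed the same way in 6 or 7 exposures was not counted, and each exposure was set against the same controls.

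**Figure D3:**
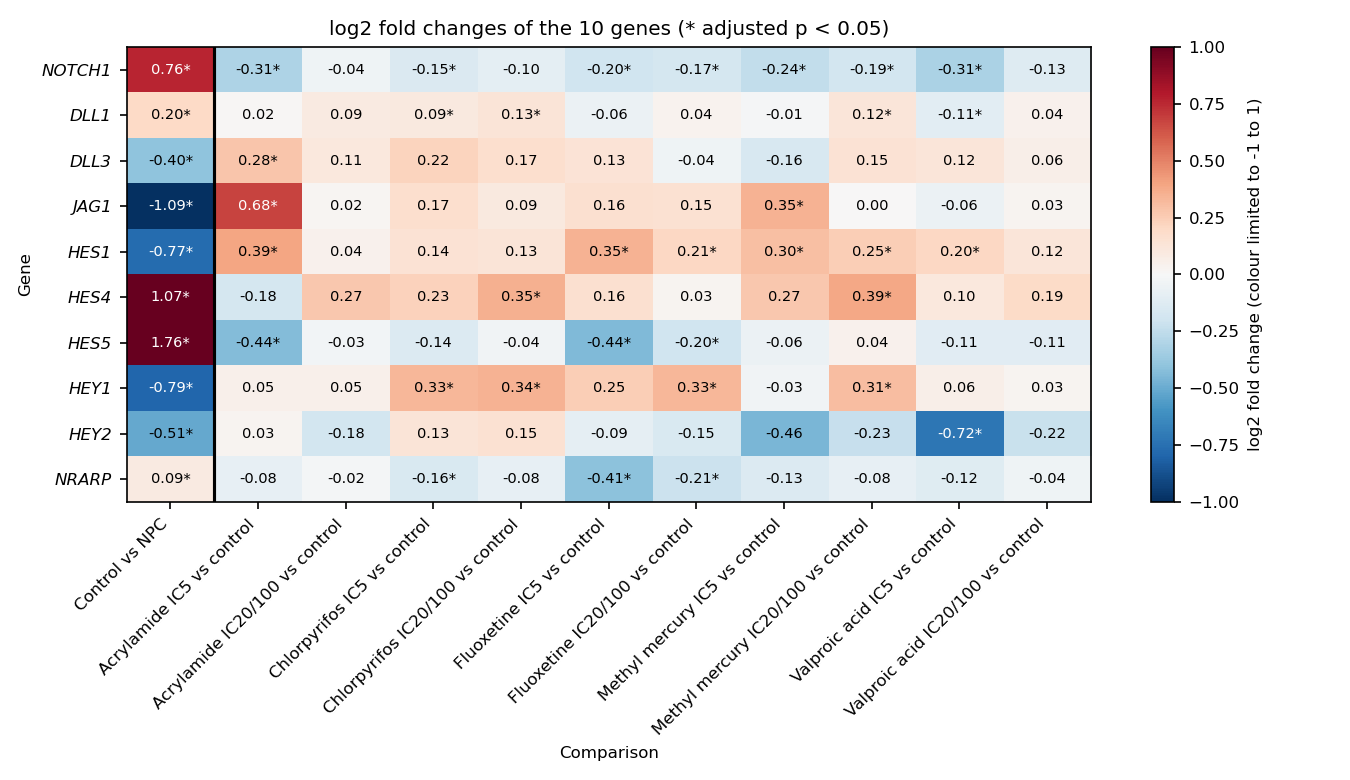
log2 fold changes on the scale of log2(normalized count plus 2) of the 10 genes (rows) in the comparison of controls with NPC and in the 10 exposures against controls (columns), where an asterisk marks an adjusted p under 0.05 in limma and colours are limited to -1 to 1. JAG1 has the largest rise among exposures (0.68, acrylamide IC5), and HES5 has its largest falls at acrylamide IC5 and fluoxetine IC5 (-0.44 each).

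With acrylamide, a neurotoxic monomer, at IC5 JAG1, HES1 and DLL3 were higher than in controls and NOTCH1 and HES5 lower. These 5 of 10 genes passed where 42% of all genes did (20.5% upward and 21.5% downward). JAG1 had counts of 4503, 5000.5 and 5449 (lowest, median, highest) against 2704, 3163 and 3737 in controls, a log2 fold change of 0.68 ± 0.09 (SE, limma adjusted p = 6.525e-10). HES1 had 555, 616 and 701 against 392, 492 and 528 (0.39 ± 0.07, limma adjusted p = 1.046e-06). HES5 had 1163, 1192 and 1288 against 1539, 1640 and 1771 (-0.44 ± 0.07, limma adjusted p = 3.095e-07). In these 3 genes every exposed library lay on one side of every control. NOTCH1 stood apart as well, with 5479 to 6442 against 6752 to 8142 (-0.31, limma adjusted p = 2.366e-06). How many of all genes separated in this way was not counted, so separation alone says little about these 4. DLL3 overlapped the controls (1468 ± 99.3 against 1269 ± 374, limma adjusted p = 0.01418, and 0.07459 when fitted on the libraries compared alone).

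The other HES and HEY genes passed at acrylamide IC5 in 4 of 5 cases, with HEYL (1.54) and HES3 (1.45) higher and HES7 (-2.52) lower. Of 7 proneural factors tested 4 were higher and 2 lower, led by NEUROD4 (0.75) and NEUROG1 (0.45), while NEUROG2 was lower (-0.33). Of the 17 modifiers 6 were higher and 4 lower, MFNG by -1.07, DTX4 by 0.69 and the fucosyltransferase gene POFUT1 by 0.55. The receptor and ligand list had DLL4 (0.81) and NOTCH4 (0.27) higher and DLK1 (-0.48) lower. Beside these differences the summed dividing-cell markers were at 18140 to 23289 against 12687 to 15386 in controls, and the summed progenitor markers at 76978 to 84864 against 98169 to 105819. The summed oligodendrocyte markers averaged 5937 against 11234, and 3 of the 6 passed, all downward. Of the 9 progenitor markers 4 passed downward and 2 upward. The part of these cell markers in the differences was not tested.

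At acrylamide IC20/100, 0 of the 10 genes passed, by limma or edgeR, where 0.0596% of all genes did, 0.0497% upward and 0.00993% downward (12 by limma; 1324 had an unadjusted p under 0.05). Without methyl mercury IC20/100 replicate 8 in the shared fit, HES4 passed (0.28, limma adjusted p = 0.04382). Tested directly against IC20/100, acrylamide IC5 had 6 genes called, where 41.1% of all genes were (20% higher and 21.1% lower). JAG1 (0.66) and HES1 (0.35) were higher and HES4 (-0.45), HES5 (-0.41), NOTCH1 (-0.27) and DLL1 (-0.07) lower at IC5. This comparison sets no control library against an exposed one, although the 8 controls are part of the shared fit. DLL1 lost its call there under TMM scaling (limma adjusted p = 0.06976), without the low-value filter (0.05889), without the run term (0.121) and when fitted on the libraries compared alone (0.08247).

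With fluoxetine, an antidepressant that blocks serotonin uptake, NRARP and HES5 were lower and HES1 higher at IC5 than in controls. Together with NOTCH1 these were 4 of 10 genes called, where 11.4% of all genes were (5.47% upward and 5.94% downward). NRARP had counts of 1446, 1551 and 1605 (lowest, median, highest) against 1919, 2046 and 2145 in controls, a log2 fold change of -0.41 ± 0.05 (SE, limma adjusted p = 2.581e-09). HES5 had 1123, 1198 and 1318 (-0.44 ± 0.07, limma adjusted p = 1.616e-06), and HES1 had 564, 619 and 681 (0.35 ± 0.07, limma adjusted p = 6.7e-05). In all 3 the groups did not overlap, while NOTCH1 (6394 ± 381 against 7428 ± 472, log2 fold change -0.20, limma adjusted p = 0.009985) did. The mean NRARP count was lower at fluoxetine IC5 (1538) than in any other group, and the gap to the next group exceeded the SD of both.

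At fluoxetine IC20/100, 5 of 10 genes were called, where 14.4% of all genes were (6.88% upward and 7.54% downward). NRARP again lay below all controls (1649 to 1901, log2 fold change -0.21, limma adjusted p = 0.001768). HES5 (-0.20, limma adjusted p = 0.04031) and NOTCH1 (-0.17) were lower with overlap, and HES1 (0.21) and HEY1 (0.33, limma adjusted p = 0.006406) higher. The calls of HES5 and NOTCH1 were lost without the run term (0.06012 and 0.06144), and that of HEY1 when fitted on the libraries compared alone (0.05443). HES5 also lost its call without the low-value filter (limma adjusted p = 0.07609) and in edgeR (adjusted p = 0.05595). In the direct test of the concentrations 3 genes were called, where 3.76% of all genes were (2.3% higher and 1.46% lower): HES5 (-0.24), NRARP (-0.19) and DLL1 (-0.10) were lower at IC5. With genes of low value left in, DLL1 and HES5 lost that call (limma adjusted p = 0.07328 and 0.06367), and DLL1 also under TMM scaling (0.0655), without the run term (0.1503) and in the libraries compared alone (0.234). Of 7 proneural factors 2 were higher, NEUROG2 (0.52) and NEUROD4 (0.38), and 1 lower at fluoxetine IC5, and TLE1 was higher (0.27) and TLE3 lower (-0.30). Of 17 modifiers NEURL1B alone passed (-0.40), and of 9 cleavage genes 0 passed. Summed dividing-cell markers at fluoxetine IC5 were 11758 to 13423, overlapping the controls. Summed oligodendrocyte markers averaged 6189 against 11234, although 1 of the 6 passed downward and 5 did not pass (median log2 fold change 0.15). In every exposed group that sum averaged less than in controls, from 5937 at acrylamide IC5 to 10328 at acrylamide IC20/100. Of the 9 progenitor markers 5 passed downward and 0 upward at fluoxetine IC5. At IC20/100 summed progenitor markers were at 84678 to 92527 against 98169 to 105819 in controls, and the part of these markers was not tested.

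With chlorpyrifos, an organophosphate insecticide given in DMSO, HEY1 and DLL1 were higher than in controls at both concentrations. At IC5, 4 of 10 genes were called, where 19.7% of all genes were (9.92% upward and 9.75% downward). HEY1 was at 243 ± 24.4 against 193 ± 27.1 (log2 fold change 0.33, limma adjusted p = 0.004564), with overlap. DLL1 was at 4609 ± 274 against 4315 ± 193 (0.09, limma adjusted p = 0.01205). NRARP lay below all controls, at 1732 to 1873 against 1919 to 2145 (-0.16, limma adjusted p = 0.02145), and NOTCH1 was lower with overlap (-0.15, limma adjusted p = 0.04892). The NOTCH1 and DLL1 calls were lost without the run term (0.1096 and 0.08597), and that of NOTCH1 also without the low-value filter (0.09504). Without methyl mercury IC20/100 replicate 8 in the fit HES4 (0.23), HES5 (-0.14) and DLL3 (0.22) were called as well. The 19.7% above belongs to the fit with that library.

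At chlorpyrifos IC20/100, 3 genes were called, all upward, where 14.1% of all genes were (7.06% upward and 7.02% downward). They were DLL1 (4681 ± 182, log2 fold change 0.13, limma adjusted p = 0.0009428), HES4 (2131 ± 193 against 1715 ± 215, 0.35, limma adjusted p = 0.007141) and HEY1 (0.34, limma adjusted p = 0.005096), all with overlap. Between the concentrations 0 of the 10 genes were called by limma or edgeR, where 0.0497% of all genes were, 0.0397% higher and 0.00993% lower (10 by limma, 16 by edgeR; 1406 had an unadjusted p under 0.05). HES7 was lower (-0.93 at IC5, -0.86 at IC20/100), HES3 higher (0.96 and 0.68) and HES6 higher (0.34 and 0.48). Of 7 proneural factors 4 were higher and 1 lower at IC5, and 3 higher and 1 lower at IC20/100. NEUROG2 (0.48 and 0.71), NEUROD4 (0.53 and 0.45) and NEUROG1 (0.46 and 0.45) were higher. Summed progenitor markers averaged 86387 and 91860 against 103206 in controls. Summed dividing-cell markers averaged 16287 at IC5 and 14966 at IC20/100 against 13985, where 2 and 1 of the 6 passed upward. The part of these markers was not tested.

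With methyl mercury, an organic mercury compound known to damage the developing brain, HES1 was higher than in controls at both concentrations. At IC5, 3 of 10 genes were called, where 10.9% of all genes were (4.85% upward and 6.06% downward). HES1 was at 520, 584 and 706 against 392, 492 and 528 in controls (log2 fold change 0.30, limma adjusted p = 0.0008018). JAG1 was at 3491, 3849 and 5041 against 2704, 3163 and 3737 (0.35, limma adjusted p = 0.003795). NOTCH1 was lower (6268 ± 528 against 7428 ± 472, -0.24, limma adjusted p = 0.001088). In each of these the groups overlapped. Without methyl mercury IC20/100 replicate 8 in the fit HES4 (0.27, limma adjusted p = 0.001465) and NRARP (-0.13, limma adjusted p = 0.001072) were called as well. Of 7 proneural factors 3 were higher, led by NEUROG2 (0.71) and NEUROG1 (0.66), and 2 lower, among them INSM1 (-0.18), and of the 5 other HES and HEY genes 0 passed. Summed neuron markers were at 74762 to 82972 against 83906 to 90742 in controls, and summed progenitor markers at 90899 to 98569 against 98169 to 105819. Summed dividing-cell markers averaged 16157 against 13985, where 2 of the 6 passed upward. The part of these markers was not tested.

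At methyl mercury IC20/100, 5 genes were called, where 15.8% of all genes were (8.21% upward and 7.6% downward): HES4 (log2 fold change 0.39), HEY1 (0.31), HES1 (0.25) and DLL1 (0.12) were higher and NOTCH1 (-0.19) lower. Replicate 8 of that group bears on each of these values. It had a HES4 count of 5095 where the other 7 libraries lay at 1749 to 2407, a HES1 count of 895 where they lay at 512 to 562, and a HES5 count of 3181 where they lay at 1451 to 1686. Without it the log2 fold change was 0.23 for HES4, 0.28 for HEY1, 0.17 for HES1 and 0.10 for DLL1, all still called. Summed progenitor markers in these 7 libraries were at 88301 to 96211 against 98169 to 105819 in controls, and their part was not tested. The NOTCH1 call was lost (-0.12, limma adjusted p = 0.08644), and NRARP, at 1732 to 1871 and then below all controls, was called (-0.17, limma adjusted p = 3.691e-05). Fitted on the 16 libraries compared alone, 0 of the 10 genes were called. Between the concentrations 4 genes were called, where 5.17% of all genes were (2.58% higher and 2.6% lower). JAG1 was higher (0.34) and HEY1 (-0.34), DLL3 (-0.31) and DLL1 (-0.13) lower at IC5. Without replicate 8, JAG1 (0.22, limma adjusted p = 0.05537) and DLL3 (-0.22, limma adjusted p = 0.176) lost that call, and without methyl mercury IC5 replicate 4 JAG1 lost it too (0.27, limma adjusted p = 0.06001).

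With valproic acid, an antiepileptic drug that inhibits histone deacetylases, NOTCH1 was lower at IC5 than in controls. There 4 of 10 genes were called, where 26.9% of all genes were (14.5% upward and 12.4% downward). NOTCH1 had counts of 5021, 6058 and 6982 (lowest, median, highest) against 6752, 7401 and 8142 in controls, a log2 fold change of -0.31 ± 0.05 (SE, limma adjusted p = 3.82e-06), with overlap. DLL1 was lower (4014 ± 262 against 4315 ± 193, -0.11, limma adjusted p = 0.002832) and HES1 higher (546 ± 42.0 against 475 ± 51.1, 0.20, limma adjusted p = 0.01456). HEY2 was lower, at 4.4 to 9.8 against 7.6 to 19.7 in controls (-0.72, limma adjusted p = 0.004225), where counting error is large. Among other pathway genes HEYL (0.85), HES3 (0.66) and NEUROG2 (0.52) were higher, DLL4 (-0.78), NEUROG1 (-0.47), NOTCH4 (-0.41) and NOTCH3 (-0.24) lower, and the neuronal Notch-binding protein gene DNER higher (0.43). Summed dividing-cell markers were at 15559 to 20419, above the 12687 to 15386 of controls, and their part was not tested.

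At valproic acid IC20/100, 0 of the 10 genes passed, by limma or edgeR, where 2.54% of all genes did, 1.17% upward and 1.37% downward (511 by limma; 2832 had an unadjusted p under 0.05). Tested directly, NOTCH1 (-0.18, limma adjusted p = 0.0119) and DLL1 (-0.15, limma adjusted p = 6.939e-05) were lower at IC5 than at IC20/100, where 17% of all genes were called (9.73% higher and 7.27% lower).

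The compounds in DMSO were set against those in medium at IC20/100, as the mean of 3 groups against the mean of 2. Vehicle and compound cannot be told apart there. HEY1 was higher in the DMSO groups (log2 fold change 0.29, limma adjusted p = 0.0001208) and NRARP lower (-0.10, limma adjusted p = 0.02822), where 17.7% of all genes were called (8.62% higher and 9.05% lower). Mean HEY1 counts were 237 to 244 in the 3 DMSO groups and 195 and 198 in the 2 medium groups. NRARP lost its call in edgeR (adjusted p = 0.05846), without the low-value filter (limma adjusted p = 0.05455) and when fitted on the libraries compared alone (0.1597). HES1 gained a call in edgeR (0.12, adjusted p = 0.03949) and with a replicate block (0.11, limma adjusted p = 0.02589). Without methyl mercury IC20/100 replicate 8 that group averaged 234 for HEY1 and 1803 for NRARP (1958 with it), and both genes kept their calls.

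The order of the group means, taken without methyl mercury IC20/100 replicate 8, shows which levels stand apart. HES5 was highest in controls (1662; with replicate 8 the methyl mercury IC20/100 mean of 1752 was above it) and then declined in small steps to fluoxetine IC20/100 (1447), none of them larger than the SD of both neighbours. A gap larger than both SDs followed, to fluoxetine IC5 (1212) and acrylamide IC5 (1209.5), and another to NPC (481). For HES1 the NPC mean (830.0) stood above acrylamide IC5 (628) by more than both SDs, and from there to the controls (475) no neighbours did. For JAG1, NPC (6571) stood above acrylamide IC5 (5003), which stood above methyl mercury IC5 (3997), each by more than both SDs, and no lower neighbours differed so. NOTCH1 fell in steps within the SD from controls (7428) to acrylamide IC5 (5970), with NPC (4347) well below. Over the 11 day 10 groups without that library, the highest mean was 1.64 times the lowest for JAG1, 1.37 times for HES5 and 1.17 times for DLL1.

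**Figure D4:**
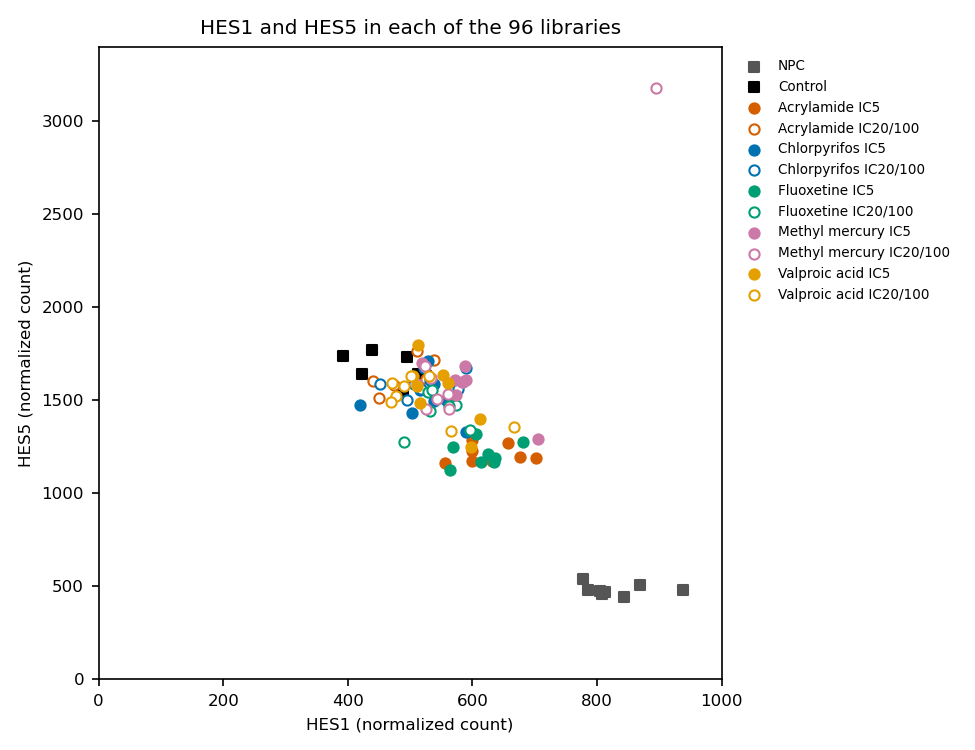
Normalized counts of HES1 (x axis) and HES5 (y axis) in each of the 96 libraries, coloured by group, with squares for NPC and controls, filled circles for IC5 and open circles for IC20/100. Controls have HES1 at 392 to 528 and HES5 at 1539 to 1771, NPC lie at the lower right, and methyl mercury IC20/100 replicate 8 lies alone with HES5 at 3181.

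Among the 10 genes, the day 10 group means of NOTCH1 and HES1 ran against each other most strongly (Pearson r = -0.84 over 11 group means, and -0.84 without methyl mercury IC20/100 replicate 8). HES1 and HES5 also ran against each other (r = -0.71, and -0.84 without that library). JAG1 ran with HES1 (0.65, 0.73 without it) and against HES5 (-0.66, -0.63 without it). The 11 points share sequencing runs, scaling and 1 experiment, so these are descriptions. Of 12544 protein-coding genes, the 3 whose group means were most like each gene were named by the same measure. The best of so many genes over 11 points can reach high values between unrelated genes, so the names are descriptions too. NOTCH1 was nearest to HCN4 (r = 0.94), DNAAF9 and PCBP4, and JAG1 to STRIP2 (0.95), CNOT7 and TRO. HES1 was nearest to GTF3C1 (0.93), GEMIN5 and FIGNL1, and HES5 to ARRDC4 (0.95), KLF10 and CCNH. NRARP was nearest to NKAIN4 (0.92), EFNB1 and TTYH1, and DLL3 to TLX3 (0.96), HSD11B1L and ENHO. DLL1 was nearest to ATG13 (0.90), FAM120C and ENTR1, and HES4 to RPL13 (0.92), ZNF853 and CPT2. HEY1 was nearest to PAK5 (0.92), TMEFF2 and VASH1, and HEY2 to TGM1 (0.97), MARCHF5 and NOVA2. Without methyl mercury IC20/100 replicate 8 the likeness of CNOT7 to JAG1 went from 0.95 to 0.82, the largest drop of those named. Smaller drops included FIGNL1 to HES1 (0.90 to 0.85) and ENTR1 to DLL1 (0.84 to 0.80), while some values rose.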

How the data were processed

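Polyadenylated RNA of 96 libraries in 12 groups of 8 was analysed. Per the submitters' processing notes, reads were processed with bcl2fastq, FastQC 0.11.8, MultiQC 1.0, Salmon 1.3.0 and DESeq2 1.30.0 on GRCh38, with no annotation release named. The deposited values are a signal made by the authors: gene counts divided by 1 size factor per library. 100% of positive values were whole multiples of 1 read within 0.001 read, so reads were recovered for edgeR. No columns were left out. The planned test for normalized values, limma 3.58.1 with a trended prior (R 4.3.3), was run on log2 of the deposited value plus 2, with group and sequencing run as terms, on genes at 10 or more in at least 8 libraries: 16 libraries and 9 residual degrees of freedom for differentiation, 88 and 72 for day 10. edgeR 4.0.16 was an alternative. The test was tried on simulated data. Symbols matched 58428 genes and GENCODE 29 positions 58171. Each of 6 runs held 1 or 2 libraries of every group. Of 336 replicate pairs none agreed within counting noise (lowest chi-square per degree of freedom 16.6). All 10 genes were named in every comparison; of other lists, up to 3 called genes of largest change per comparison and, for context, a few others chosen after their values were seen. The members and lists were chosen with earlier results of these data known. Neighbouring group means were called apart where their gap exceeded the larger SD. Some genes of the lists are not reported here by name.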

Additional observations from a re-analysis of the deposited data

Results flagged for a closer look

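Of 120 sets of 8 libraries (10 genes in 12 groups), 18 held a library far from the others by Dixon's criterion, which chance alone meets in about 1 in 20 sets. Methyl mercury IC20/100 replicate 8 made 6 of these, with normalized counts of 4301 for NOTCH1 and 1663 for JAG1 (lowest of its group) and 895 for HES1, 5095 for HES4, 3181 for HES5 and 3038 for NRARP (highest). Methyl mercury IC5 replicate 4 was lowest for NOTCH1 (5113), DLL1 (3823) and HES5 (1289.5) and highest for HES1 (706). Chlorpyrifos IC5 replicate 1 was highest for NOTCH1 (8036) and JAG1 (4344). DLL3 had a high library in 5 groups: control replicate 7 (2177), acrylamide IC20/100 replicate 4 (1704), chlorpyrifos IC20/100 replicate 5 (1604), fluoxetine IC5 replicate 4 (1787) and valproic acid IC5 replicate 4 (1659). HES4 had a low library in fluoxetine IC5 replicate 5 (1594).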

How the results depend on the processing

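Over 17 comparisons of 10 genes, 170 results were refitted, all of them under 6 settings, 168 on the libraries compared alone, 110 after leaving out control replicate 7, 160 after leaving out replicate 8 of methyl mercury IC20/100, and 20 each without chlorpyrifos IC5 replicate 1 and methyl mercury IC5 replicate 4. Of 60 called, 39 kept their call under every setting run for them, 21 lost it under at least 1, 20 not called gained it under at least 1, and 0 changed direction while called. A pseudocount of 10 changed 0 calls, and TMM scaling moved the median of all genes by at most 0.011 on the log2 scale. The larger moves in the counts of genes called, out of all tested and of the 10, were as follows. Where a count of the 10 stands without that over all genes of the same fit, it alone says little about the 10. Without the low-value filter, acrylamide IC20/100 had 7 genes in place of 12, the fluoxetine concentrations 1 of the 10 in place of 3, and the vehicle comparison 1 in place of 2. Without the run term, acrylamide IC20/100 had 6 genes, valproic acid IC20/100 329 in place of 511, the chlorpyrifos concentrations 5 in place of 10, and of the 10 genes chlorpyrifos IC5 had 2 in place of 4 and fluoxetine IC20/100 3 in place of 5. In edgeR the chlorpyrifos concentrations had 16. Fitted on the libraries compared alone, with fewer samples, acrylamide IC20/100 had 0 genes, methyl mercury IC20/100 351 in place of 3185, valproic acid IC20/100 22, the chlorpyrifos concentrations 2, the fluoxetine concentrations 450 in place of 758 and the methyl mercury concentrations 27 in place of 1042. Of the 10 genes that fit called 7 at chlorpyrifos IC5, 5 at methyl mercury IC5, 0 at methyl mercury IC20/100, 0 between the methyl mercury concentrations and 1 for vehicle. Without methyl mercury IC20/100 replicate 8, acrylamide IC20/100 had 27 genes, valproic acid IC20/100 925, the chlorpyrifos concentrations 27 and the fluoxetine concentrations 1175, and of the 10 genes 1 at acrylamide IC20/100, 7 at chlorpyrifos IC5, 5 at methyl mercury IC5 and 2 between the methyl mercury concentrations were called. Smaller moves in that fit included gained calls of HES4 and NRARP at acrylamide IC5 (limma adjusted p = 0.01963 and 0.02946). HES5 and NRARP gained calls at valproic acid IC5 (limma adjusted p = 0.03695 and 0.0009759), and NRARP at chlorpyrifos IC20/100 (0.04972). Between the valproic acid concentrations NRARP gained a call too (limma adjusted p = 0.04161). In these smaller moves the log2 fold changes were the same in both fits, such as -0.18 for HES4 and -0.08 for NRARP at acrylamide IC5. Only the spread of the shared fit and the adjustment over genes differed. Why that library stood apart was not tested. Added after seeing the data, leaving out control replicate 7 gave 13 genes at acrylamide IC20/100 and 670 at valproic acid IC20/100 and gained 5 calls, of DLL3 at chlorpyrifos IC5 (0.33), chlorpyrifos IC20/100 (0.27), methyl mercury IC20/100 (0.25) and valproic acid IC5 (0.23) and of HEY1 at fluoxetine IC5 (0.27). Replicate numbers did not pair the libraries: the median correlation of same-numbered deviations was at most 0.059, at chlorpyrifos IC5, where 6 of 8 libraries correlated best with their own number but shared its sequencing run with it. A replicate block called 5 of the 10 genes at methyl mercury IC5 in place of 3, and over the 170 results 1 call was lost and 5 were gained. HEY2, at 7.1 to 19.2 on average, is limited by counting error.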

Other observations

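ID genes code for proteins that hold proneural factors inactive and were followed as a list of 4. Between NPC and controls ID2 rose (log2 fold change 0.60) and ID3 fell (-0.70). At valproic acid IC5 ID3 was higher (0.92) and ID4 lower (-0.36). At fluoxetine IC5 ID1 (-0.85) and ID4 (-0.14) were lower, as at IC20/100 (-0.56 and -0.16). ID4 was lower at methyl mercury IC5 (-0.29) and IC20/100 (-0.13). At acrylamide IC5 ID4 alone passed (0.12). All values are from limma with sequencing run as a term, at an adjusted p under 0.05.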
